A study of Mus musculus with 8 samples.

Results

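The genes described here are 9 genes of B cell receptor signalling, Cd79a, Cd79b, Cd22, Cd72, Blk, Syk, Btk, Blnk and Bank1, measured in mouse B and T cell leukemias with intact or shortened Miz1. They were chosen by name, as receptor subunits, coreceptors and signalling genes that act close to the receptor. Earlier results of these data were known when they were chosen. All 9 were found among the 41214 gene identifiers of the deposited count tables, and all 9 passed the filter on low counts that kept 16456 genes for testing.

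The B cell receptor is a membrane immunoglobulin that binds antigen, joined to a signalling pair made of the Cd79a and Cd79b proteins. When antigen binds, kinases of the Src family such as Lyn and Blk phosphorylate tyrosines in the tails of that pair, Syk docks there, and Syk phosphorylates the adaptor Blnk, on which Btk and the phospholipase Plcg2 assemble to release calcium. Cd22 and Cd72 are surface proteins that recruit the phosphatase Ptpn6 and dampen the signal, and Bank1 is a scaffold protein that links the receptor and its Src family kinases to calcium release. T cells run a parallel system in which the Cd3 chains, Lck and Zap70 take the places of Cd79, Lyn and Syk. Lat is an adaptor of that system.

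RNA came from spleen tumours of C57Bl6 mice. There were 2 libraries in each of 4 groups, each library from its own mouse: B cell tumours with wild-type Miz1 (B wt), B cell tumours with Miz1 deltaPOZ (B deltaPOZ), and tumours labelled CD4+ T cell with either genotype (T wt and T deltaPOZ). Miz1 is the zinc finger transcription factor encoded by Zbtb17, and deltaPOZ is an allele without the POZ domain, through which Miz1 molecules associate. The labels give neither the ages of the mice, nor the agent that caused the tumours, nor the promoter by which the allele was deleted, and the tissue is whole tumour and not sorted cells. The file names carry 1 run tag on all B libraries and another on all T libraries, a Notch tag on the T libraries alone, and an ENU tag on the T deltaPOZ libraries alone. Run and lineage, and the ENU tag and the deltaPOZ genotype in T, therefore cannot be told apart.

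The libraries held 44.3 to 58.3 M gene counts. Levels are in CPM, counts scaled to a common library size after trimmed mean of M values normalization, fold changes are log2 with their standard error (SE), and a gene is called where edgeR's quasi-likelihood test gave an adjusted p under 0.05 (Benjamini-Hochberg over the 16456 genes). Pax5, the factor that fixes B lineage identity, stood at 43.5 to 70.8 CPM in the B libraries and at 0.559 to 3.37 in the T libraries, and Cd3e, a chain of the T cell receptor, at 0.140 to 0.332 and at 78.5 to 93.4. Cd8a, at 356 to 1246 CPM, exceeded Cd4, at 98.8 to 432, in each library labelled CD4+ T. Some libraries stood apart by genes of other cells or by how many genes were detected. B wt 2 held macrophage and neutrophil markers at 890 and 764 CPM in sum, T wt 1 held neutrophil markers at 901 CPM, and T deltaPOZ 2 had 25387 genes with a count where the rest had 18339 to 21078.

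All 9 genes are protein coding in GENCODE M21 on GRCm38. The sequence before the RefSeq start was taken from RefSeq (GRCm38.p6) for the 7 genes in that table. RefSeq and GENCODE place some starts differently: all 250 bases of the Blnk window and of 1 Syk window, 116 of the Cd79a window and 102 of the Cd22 window are exon in GENCODE, and the stretches shown for Cd79a, Blnk and Cd22 lie inside the GENCODE genes. The sequence is shown for Bank1 and Cd72, whose levels in the B tumours differed in opposite directions between the genotypes, and in short stretches for 3 genes that hold a match to a motif of B cell transcription factors. Both strands of the 250 bases before each RefSeq start were searched for the ETS core GGAAGT, the octamer ATTTGCAT, the E-box CAGGTG and the EBF palindrome, TCCC and GGGA parted by 2 bases. None of these motifs overlaps another in the windows printed, and capitals mark the matches.
Bank1, chr3:136326067-136326316, minus strand: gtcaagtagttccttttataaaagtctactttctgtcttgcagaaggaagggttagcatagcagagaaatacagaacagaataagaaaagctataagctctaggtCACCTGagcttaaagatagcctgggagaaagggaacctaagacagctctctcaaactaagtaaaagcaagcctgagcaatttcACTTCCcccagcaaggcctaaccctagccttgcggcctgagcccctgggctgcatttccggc
Cd72, chr4:43454629-43454876, minus strand: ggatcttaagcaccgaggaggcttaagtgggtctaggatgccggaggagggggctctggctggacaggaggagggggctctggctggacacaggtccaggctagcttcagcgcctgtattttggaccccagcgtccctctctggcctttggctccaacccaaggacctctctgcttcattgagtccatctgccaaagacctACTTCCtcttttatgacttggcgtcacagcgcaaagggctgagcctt
Cd79a, ETS core, chr7:24897431-24897460, plus strand: cacggctgaacaGGAAGTgaggcggagttt
Blnk, ETS core, chr19:40994405-40994434, minus strand: ttgggacaaacaGGAAGTagtgctcagtca
Blnk, octamer, chr19:40994333-40994362, minus strand: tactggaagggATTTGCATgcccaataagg
Cd22, EBF palindrome, chr7:30879058-30879087, minus strand: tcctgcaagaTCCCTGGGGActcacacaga

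Syk has 2 starts in the table, so there were 8 windows for the 7 genes. The ETS core was found in 4 of the 8, those of Bank1, Cd72, Cd79a and Blnk, beside 19.7% of 32851 windows of all genes. In Cd72 and Cd79a it begins 49 and 54 bases before the RefSeq start, in Bank1 62 and in Blnk 201. The octamer, known from immunoglobulin promoters, was found in the Blnk window alone (1.60% of all windows) and the EBF palindrome in the Cd22 window alone (0.779%). The E-box was found in 6 of the 8 (17.2% of all windows), and the Btk window held none of the 4 motifs. A match is a run of letters, and binding was not measured.

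All 9 genes were higher in B than in T tumours, by fitted log2 differences from 3.33 for Bank1 to 5.03 for Cd79b. The ratio of the mean of the 4 B libraries to the mean of the 4 T libraries ran from 10.4 for Bank1 to 32.3 for Cd79b. Each of the 9 passed edgeR's test, with adjusted p from 0.00013 (Btk) to 0.00849 (Cd72), where 16.0% of all tested genes were called higher in B. The median log2 difference of the 9 was 3.90, and that of all tested genes was -0.05. DESeq2 and limma-voom also called 9 of 9, where they called 41.9% and 35.3% of genes in either direction. For 8 genes every B library was above every T library (17.0% of all tested genes did this), and Cd72 was the exception.

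**Figure D1:**
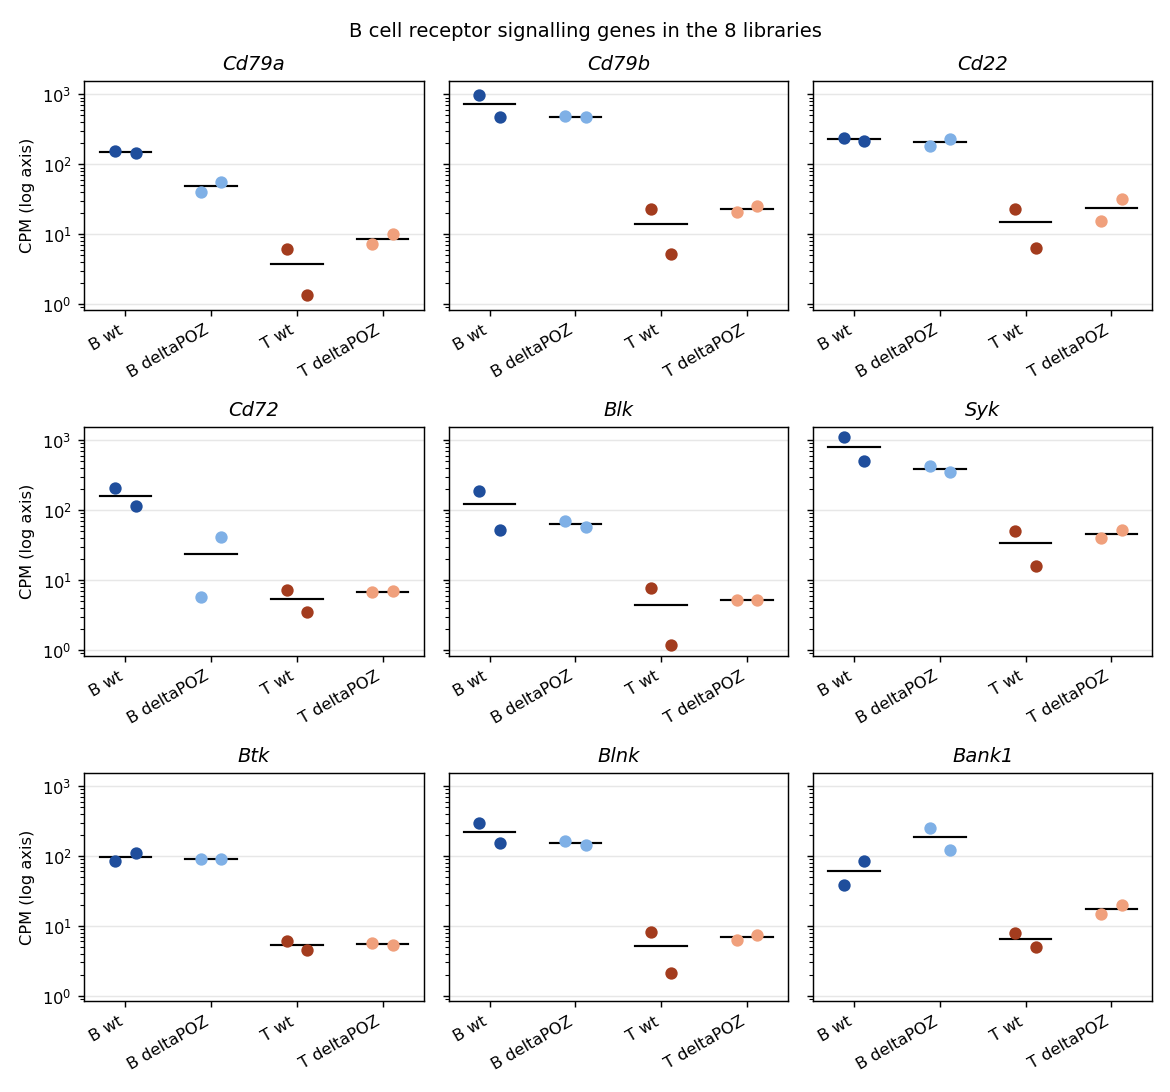
Level of each of the 9 genes in CPM on a log axis, with 1 point for each library and a line at the mean of the 2 libraries of a group. The B points lie above the T points for every gene but Cd72. There B deltaPOZ 1 (5.73 CPM) lies below T wt 1 (7.28), T deltaPOZ 1 (6.84) and T deltaPOZ 2 (6.90).

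The subunits of the signalling pair were both high in the B tumours, where the genotypes were apart for Cd79a and overlapped for Cd79b. Cd79a (ENSMUSG00000003379, chr7:24897381-24902197) stood at 155 and 145 CPM for B wt, 40.7 and 56.0 for B deltaPOZ, 6.13 and 1.35 for T wt, and 7.29 and 9.99 for T deltaPOZ. Both B deltaPOZ libraries were thus below both B wt libraries, and both T deltaPOZ libraries above both T wt libraries. The first held for 19.1% of all tested genes, the second for 15.4% and both together for 2.30%. Cd79b (ENSMUSG00000040592, chr11:106311341-106314762) stood at 971 and 478 CPM for B wt, 488 and 468 for B deltaPOZ, 23.0 and 5.23 for T wt, and 20.9 and 25.2 for T deltaPOZ. Only B wt 1 was far from the other B libraries for Cd79b, and the genotypes overlapped in both lineages. The log2 difference of B over T was 3.90 (SE 0.47, edgeR adjusted p = 0.00197) for Cd79a and 5.03 (SE 0.53, adjusted p = 0.00132) for Cd79b.

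Per kilobase of merged exons the amount of Cd79a relative to Cd79b was 0.157 and 0.297 for B wt and 0.0819 and 0.118 for B deltaPOZ. The ratio was 0.261 and 0.254 for T wt and 0.343 and 0.390 for T deltaPOZ. The deltaPOZ values were lower in B and higher in T, as were those of Cd79a itself, and this ratio was not tested.

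Of the 2 inhibitory coreceptors, Cd22 was even among the B tumours and Cd72 was not. Cd22 (ENSMUSG00000030577, chr7:30865402-30880342), a lectin that binds sialic acid, stood at 240 and 217 CPM for B wt, 184 and 227 for B deltaPOZ, 23.2 and 6.40 for T wt, and 15.7 and 31.5 for T deltaPOZ. Its 4 B values lay within 1.30-fold of each other and the genotypes overlapped. Cd72 (ENSMUSG00000028459, chr4:43446462-43454628) stood at 209 and 115 CPM for B wt, 5.73 and 41.3 for B deltaPOZ, 7.28 and 3.50 for T wt, and 6.84 and 6.90 for T deltaPOZ. Its 4 B values spanned 36.4-fold, the widest range of the 9 genes, with B deltaPOZ 1 at the level of the T tumours.

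The log2 difference of B over T was 3.54 (SE 0.45, edgeR adjusted p = 0.00228) for Cd22 and 3.34 (SE 0.63, adjusted p = 0.00849) for Cd72. Without the 3 libraries that stood apart (B wt 2, T wt 1 and T deltaPOZ 2) the Cd72 difference was 3.87 and no longer passed (adjusted p = 0.0972), while the other 8 genes still did, where 2.74% of all tested genes were called higher. Cd72 overlaps Tesk1 on the other strand, and the sources do not say whether the counting used strand. Tesk1 reached at most 18.1 CPM.

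The 3 kinases were higher in the B tumours, with ratios of the means from 15.0 (Syk) to 19.1 (Blk). Blk (ENSMUSG00000014453, chr14:63372836-63417037), the Src family kinase most restricted to B cells, stood at 189 and 52.8 CPM for B wt, 69.3 and 56.6 for B deltaPOZ, 7.69 and 1.17 for T wt, and 5.15 and 5.27 for T deltaPOZ. Syk (ENSMUSG00000021457, chr13:52583173-52648792), the kinase that docks on Cd79, stood at 1103 and 500 CPM for B wt, 435 and 351 for B deltaPOZ, 50.9 and 16.0 for T wt, and 40.2 and 52.1 for T deltaPOZ. B wt 1 was the highest library for both, by a wide margin, and T wt 2 the lowest.

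Btk (ENSMUSG00000031264, chrX:134542336-134583570), the Tec family kinase whose loss causes agammaglobulinaemia in people and a B cell defect in mice, had the narrowest range of the 9 within each lineage. It stood at 86.0 and 109 CPM for B wt, 90.6 and 90.2 for B deltaPOZ, 6.05 and 4.60 for T wt, and 5.75 and 5.42 for T deltaPOZ. Its highest B library was 1.27-fold its lowest, and its highest T library 1.32-fold its lowest. The log2 differences of B over T were 4.18 for Blk (SE 0.68, edgeR adjusted p = 0.00512), 3.84 for Syk (SE 0.45, adjusted p = 0.00179) and 4.11 for Btk (SE 0.17, adjusted p = 0.00013). Btk ranked the 8th of all tested genes by p in this comparison.

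Both adaptors were higher in the B tumours, and the genotypes were apart for Bank1 and not for Blnk. Blnk (ENSMUSG00000061132, chr19:40928927-40994535) stood at 293 and 151 CPM for B wt, 163 and 143 for B deltaPOZ, 8.17 and 2.09 for T wt, and 6.36 and 7.41 for T deltaPOZ. Its genotypes overlapped in both lineages, and B wt 1 was again the highest. Bank1 (ENSMUSG00000037922, chr3:136053363-136326066) stood at 38.3 and 84.2 CPM for B wt, 249.5 and 121 for B deltaPOZ, 7.97 and 4.99 for T wt, and 14.7 and 19.7 for T deltaPOZ. It was the only one of the 9 with both deltaPOZ libraries above both wt libraries in each lineage, which 3.60% of all tested genes did. The log2 difference of B over T was 4.95 (SE 0.49, edgeR adjusted p = 0.00108) for Blnk and 3.33 (SE 0.38, adjusted p = 0.00163) for Bank1.

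Levels were compared between genes in CPM per kilobase of merged exons. Cd79b was first of the 9 in each of the 8 libraries, with a mean of 420 ± 172 over the B libraries (SD, n = 4 of both genotypes) and 13.0 ± 6.3 over the T libraries. In B it was followed by Cd79a at 68.0 ± 40.6, Syk at 63.8 ± 36.6, Cd22 at 43.1 ± 4.7, Blk at 34.1 ± 24.2, Blnk at 31.3 ± 11.8, Btk at 29.9 ± 3.3, Cd72 at 27.1 ± 26.2 and Bank1 at 16.5 ± 12.1. From Cd79a downward each mean lay within 1 SD of its neighbour, so that part of the order was not resolved. In B deltaPOZ 1 Bank1 was the 4th of the 9 and Cd72 the 9th, while in B wt 1 they were the 9th and the 5th. With the longest protein coding transcript as length, Cd79b stayed first and Blnk moved to 89.3, behind Syk at 111.

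In T tumours the 9 genes were low but present, with no gene at 0 in any library. Their sum was 140 and 45.3 CPM for T wt and 123 and 164 for T deltaPOZ, against 3283 and 1852 for B wt and 1726 and 1554 for B deltaPOZ. T wt 2 was the lowest library for all 9, and it was also lowest for Pax5 (2.40 and 0.559 CPM for T wt, 3.37 and 3.20 for T deltaPOZ). The 7 B lineage markers together, Pax5 among them, summed to 127 and 84.7 CPM for T wt and to 134 and 77.0 for T deltaPOZ, so their lowest library was T deltaPOZ 2 and not T wt 2. In bulk tumour RNA, fewer B cells and less RNA per cell cannot be told apart.

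The Cd79a levels spanned 7.39-fold over the 4 T libraries and those of Btk 1.32-fold. The 11 macrophage markers summed to 135 to 315 CPM in the T libraries, the 8 mature B cell markers to 66.7 to 113, and none of either list was at 0. Macrophages also express Syk and Btk. The 9 erythroid markers summed to 4658 and 22657 CPM for T wt and to 7629 and 12498 for T deltaPOZ, so T wt 2, lowest for the receptor genes, was highest for these. The part of other cells in the T levels was not tested.

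The first genotype question was how the 9 genes differed between deltaPOZ and wt in B tumours. Cd79a and Cd72 had lower levels with deltaPOZ and Bank1 a higher one, and none passed edgeR's test. Cd79a averaged 149.8 ± 7.4 CPM in wt and 48.3 ± 10.8 in deltaPOZ (SD, n = 2), a log2 fold change of -1.63 (SE 0.61, adjusted p = 0.382 by edgeR). Cd72 averaged 162 ± 66 and 23.5 ± 25.2 CPM, with -2.78 (SE 0.87, edgeR adjusted p = 0.323). Bank1 averaged 61.3 ± 32.4 and 185 ± 91 CPM, with 1.60 (SE 0.50, edgeR adjusted p = 0.323). Of all tested genes 0.00608% were called.

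These 3 genes had an unadjusted p under 0.05, as had 12.1% of all tested genes. DESeq2 called Cd72 (adjusted p = 0.0159) and Bank1 (adjusted p = 0.0465) among the 4.18% of genes it called, and limma-voom called none of the 9 (0.0365% of genes). The genotypes did not overlap for 3 genes that were lower (Cd79a, Cd72 and Syk) and for Bank1, which was higher. Of all tested genes 19.1% were lower and 19.9% higher without overlap, so the 4 of 9 here are a share close to the background.

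The remaining 6 fold changes in B were negative, and none had an unadjusted p under 0.05: -1.03 (SE 0.57) for Syk, -0.94 (SE 0.85) for Blk, -0.60 (SE 0.63) for Cd79b, -0.54 (SE 0.58) for Blnk, -0.15 (SE 0.58) for Cd22 and -0.11 (SE 0.21) for Btk. Adjusted p ran from 0.507 to 0.944 by edgeR. For Cd79b, Blk and Blnk the sign rested on B wt 1, without which the values were 0.00013, 0.26 and 0.02. For Cd22 it rested on B deltaPOZ 1 (0.05 without it), and for Btk on B wt 2 (0.13 without it). Without B wt 1 the Syk value was -0.35.

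The size of the Cd72 and Bank1 differences depended on single libraries, while the direction did not. Cd72 was at -1.91 without B deltaPOZ 1 and at -4.82 without B deltaPOZ 2. Bank1 was at 1.03 without B deltaPOZ 1 and at 2.33 without B wt 2. Cd79a moved from -1.37 to -1.88 over the fits that left out a library. Markers of other cells differed between the B libraries too: the 11 macrophage markers summed to 129 and 890 CPM for B wt and to 303 and 96.1 for B deltaPOZ, and the 14 T cell markers to 205 and 108 and to 149 and 48.5. The 7 B lineage markers were all lower with deltaPOZ (median log2 fold change -1.14), as were the 11 neutrophil markers (median -2.94), whose sums were 127 and 764 CPM for B wt and 55.1 and 62.6 for B deltaPOZ. The 9 erythroid markers were all higher (median 3.96), with sums of 5.13 and 4.89 CPM for B wt and 12.8 and 222 for B deltaPOZ. No marker of these lists passed edgeR's test, and their part in the differences described was not tested.

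In T tumours no gene of the 9 passed edgeR's test between the genotypes, and neither did any other tested gene (0.00%). All 9 fitted values were positive, with a median of 0.47. The 11 macrophage markers were also all positive (median 0.68), with sums of 199.5 and 135 CPM for T wt and 315 and 270 for T deltaPOZ, and so were the 6 platelet markers (median 1.92). Positive too were 5 of the 7 B lineage markers (list median 1.07) and 6 of the 8 mature B cell markers (1.03). Negative were all 9 erythroid markers (list median -0.42), 8 of the 11 neutrophil markers (-0.77) and 11 of the 14 T cell markers (-0.34). The part of any of these markers in the values of the 9 genes was not tested. Bank1 averaged 6.48 ± 2.10 CPM for T wt and 17.2 ± 3.5 for T deltaPOZ (SD, n = 2), a log2 fold change of 1.41 (SE 0.50), and was the only one with an unadjusted p under 0.05, where 2.65% of all tested genes had one. Cd79a averaged 3.74 ± 3.38 and 8.64 ± 1.91 CPM, with 1.21 (SE 0.61). DESeq2 (0.298% of genes) and limma-voom (0.00%) also called none of the 9.

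The other 7 values in T ran from 0.07 (SE 0.22) for Btk to 0.71 (SE 0.64) for Cd79b, and their genotypes overlapped. The groups did not overlap for Bank1 and Cd79a, 2 of 9, both higher, where 15.4% of all tested genes were higher without overlap. The common sign rested on T wt 2. Without that library the values were -0.56 for Blk, -0.24 for Blnk, -0.14 for Syk, -0.11 for Btk, -0.08 for Cd72, 0.00 for Cd79b, 0.03 for Cd22, 0.50 for Cd79a and 1.11 for Bank1.

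The genotype effects of the 2 lineages were then compared directly, as the effect in T minus the effect in B. Cd79a had a difference of 2.84 (SE 0.86, edgeR adjusted p = 0.710) and Cd72 one of 3.13 (SE 1.19, edgeR adjusted p = 0.765). Both had an unadjusted p under 0.05, as had 6.26% of all tested genes, and neither edgeR (0.00% of genes), DESeq2 (1.38%) nor limma-voom (0.00%) called any of the 9. Cd79a was lower with deltaPOZ in B and higher in T without overlap in either lineage, a pattern shown by 2.30% of all tested genes. For Bank1 the difference was -0.19 (SE 0.69, edgeR adjusted p = 1), with values of 1.60 in B and 1.41 in T. Fitted without a filter on low counts, edgeR called 4 of the 9 in B (4.79% of all genes), 2 in T (0.919%) and 4 for the difference (2.84%).

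**Figure D2:**
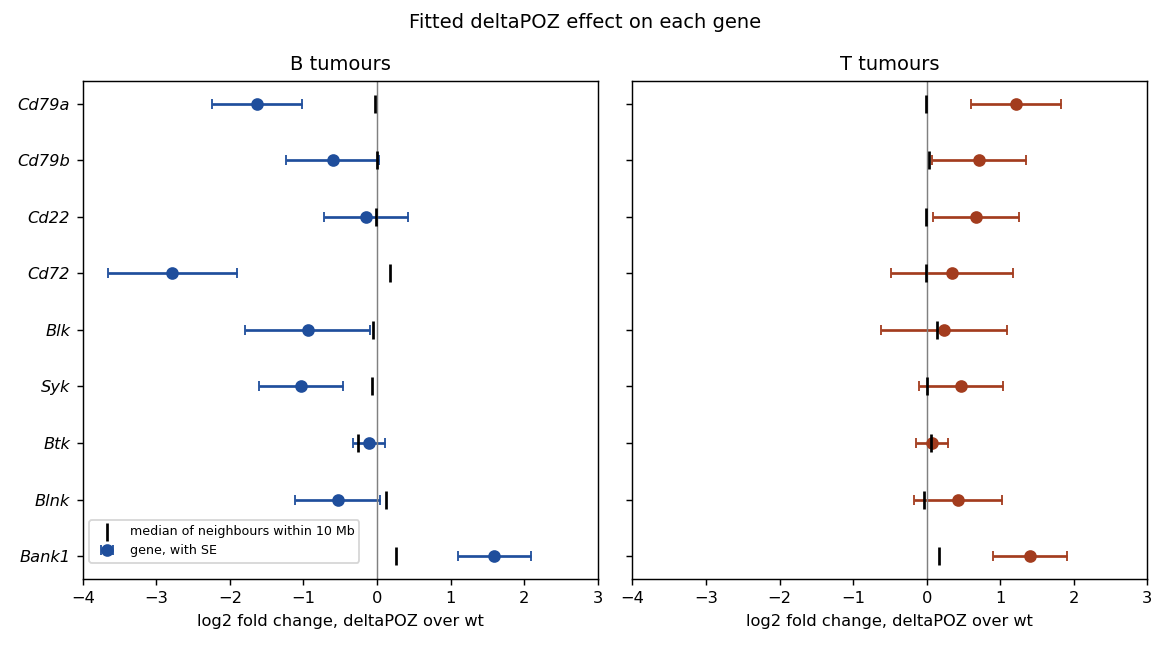
Fitted log2 fold change of deltaPOZ over wt in B tumours (left) and T tumours (right), as points with bars of 1 SE, and the median of the tested neighbours within 10 Mb as a black tick. In B, Cd79a and Cd72 lie to the left at -1.63 and -2.78 and Bank1 to the right at 1.60. In T all 9 points lie at or right of 0.07.

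Whole chromosomes stood apart in single libraries, so each gene was set beside the tested genes within 10 Mb of it. Among them were chromosome 3 by 0.35 (log2) and chromosome 4 by 0.28 in B deltaPOZ 1, and chromosome 14 by 0.28 in T deltaPOZ 1. Around Bank1 on chromosome 3, 78 neighbours had a median deltaPOZ effect of 0.26 in B and 0.17 in T. In B deltaPOZ 1 and in T deltaPOZ 2 these neighbours lay 0.31 and 0.27 (log2) above their mean in the lineage. Bank1 minus its neighbours was 1.34 in B and 1.24 in T. Around Cd72 on chromosome 4, 136 neighbours had a median of 0.18 in B, opposite in sign to the -2.78 of Cd72, and the difference was -2.96. For Blk on chromosome 14, 209 neighbours had a median of 0.14 in T, beside the 0.23 of Blk itself.

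The 288 neighbours of Cd79a on chromosome 7 had medians of -0.02 in B and -0.01 in T. Around Btk on chromosome X, 62 neighbours had a median of -0.26 in B, below the -0.11 of Btk itself. Sex followed genotype in the B tumours: Xist, made from the inactive X of females, reached 975 and 1477 CPM for B wt but 0.936 and 0.757 for B deltaPOZ. Sex and genotype therefore cannot be told apart for Btk or for any other gene in B. In T, Xist stood at 1246 CPM for T wt 1 and at 11.8 to 35.4 in the other 3 libraries.

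Likeness of the 9 genes across the 8 libraries was measured as the root mean square difference of centred log2 CPM, which lineage dominates. Cd79b and Blnk were most alike (0.145), then Blk and Syk (0.390), and Cd72 and Bank1 were least alike (2.10). The subunits Cd79a and Cd79b differed by 0.748. Among other tested genes, Cd79b was most like Siglecg (0.199), a gene without a symbol in the annotation (ENSMUSG00000099065, 0.321) and Pax5 (0.332). Cd79a was most like Cyp4f18 (0.313), Kctd12 (0.486) and Dok3 (0.498), and Blk most like Dok3 (0.436), Dennd5b (0.444) and Pou2af1 (0.457).

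Other genes of the pathway went both ways between the lineages. Of 59 tested genes in 4 lists (coreceptors, other kinases and adaptors, distal effectors, inhibitors), 17 were called higher in B, 17 lower and 25 neither, with a median log2 difference of -0.03. Of all tested genes 16.0% were called higher and 19.3% lower. That compares with 9 higher of 9, and a median of 3.90, for the genes described above. Of the 3 coreceptors 1 was called higher in B, while Cr2 (-1.66, SE 0.65, edgeR adjusted p = 0.0883) and Cd81 (0.41, SE 0.22, adjusted p = 0.186) did not pass.

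Of 21 other kinases and adaptors, 8 were higher and 7 lower in B. Plcg2, the phospholipase that binds Blnk, was higher by 4.69 (SE 0.46), the Src family kinase Lyn by 2.65 (SE 0.28) and the adaptor Pik3ap1 by 2.99 (SE 0.31), whereas Fyn, a Src family kinase of T cells, was at -3.37 (SE 0.37). Of 17 distal effectors 2 were higher and 5 lower, among them the calcium channel gene Itpr1 at 1.73 and the transcription factor gene Nfatc2 at -2.18. Of 18 inhibitors 6 were higher and 5 lower. Siglecg, a relative of Cd22, was higher by 4.85 (SE 0.45), while the phosphatase gene Ptpn22 (-4.87), the adaptor gene Sla (-3.08) and the ubiquitin ligase gene Cbl (-2.42) were lower in B. Each value named in this paragraph passed edgeR's test, with adjusted p at or under 0.00699.

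**Figure D3:**
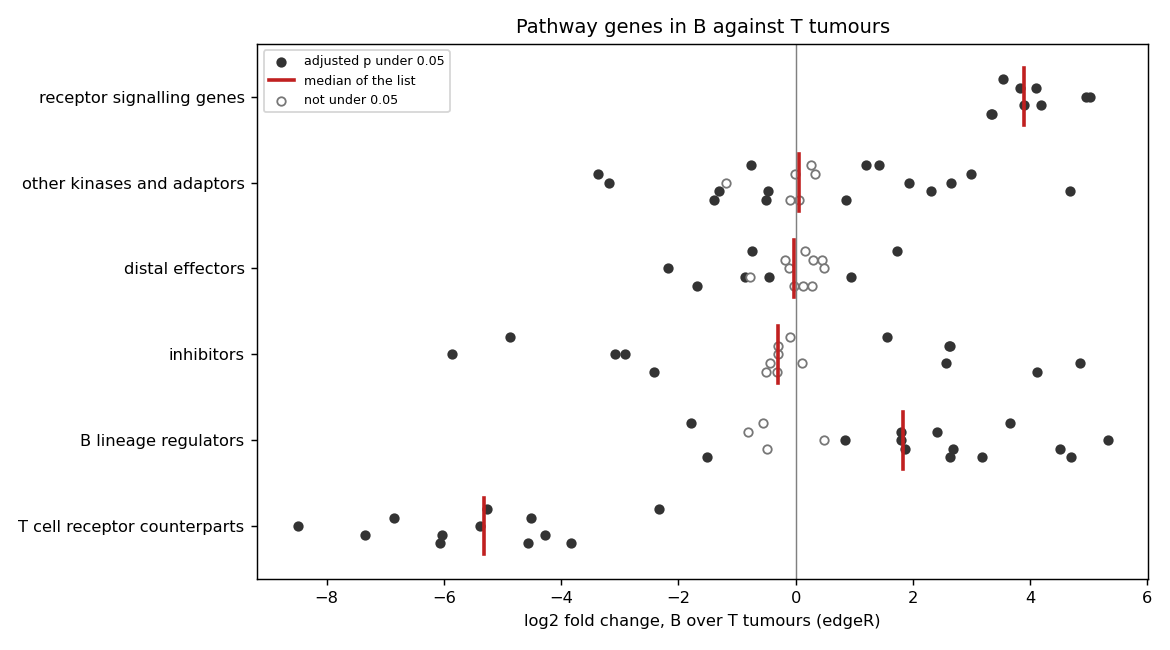
Fitted log2 difference of B over T tumours for each tested gene of 6 lists, with 1 point for each gene, filled where the adjusted p was under 0.05, and a red line at the median of the list. The 9 receptor signalling genes lie between 3.33 and 5.03, the 3 lists of other pathway genes shown (kinases and adaptors, distal effectors, inhibitors) spread to both sides of 0, and the 12 T cell receptor counterparts lie below 0.

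Of 18 tested transcription factors that act in B cell development, 12 were higher in B and 2 lower, with a median log2 difference of 1.84. Pax5 was higher by 4.70 (SE 0.46), Ebf1 by 5.32 (SE 0.49), Pou2af1 by 4.51 (SE 0.42) and Irf8 by 2.42 (SE 0.22), each with an edgeR adjusted p at or under 0.00103. The 12 counterparts in T cell receptor signalling were all lower in B, with a median of -5.32. Zap70, the relative of Syk in T cells, was at -4.27 (SE 0.30, edgeR adjusted p = 0.000371). The adaptor gene Lat was at -6.03 (SE 0.29, edgeR adjusted p = 0.000187).

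The receptor chains themselves were mixed. Of 7 tested, Vpreb1, Vpreb3 and Igll1 were higher in B and Iglc2 was lower. Vpreb1 and Igll1 are genes of the surrogate light chain, which pairs with the heavy chain in precursor B cells. Ighm, the heavy chain that the Cd79 pair carries to the surface, stood at 1258 and 824 CPM for B wt, 1334 and 1034 for B deltaPOZ, 909 and 333 for T wt, and 946 and 335 for T deltaPOZ, and did not pass (0.82, SE 0.43, edgeR adjusted p = 0.179). Ighm in T wt 1 and T deltaPOZ 1 was above that in B wt 2. Its fitted log2 difference of 0.82 stands beside 3.90 for Cd79a and 5.03 for Cd79b.

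With deltaPOZ, none of the 59 other pathway genes passed edgeR's test in B or in T. In B 13 of them had an unadjusted p under 0.05 (12.1% of all tested genes) and in T 3 (2.65%). DESeq2 called 3 lower in B, Pik3ap1 among them, where it called 4.18% of all genes in either direction, and none in T, and limma-voom called none in either. Pik3ap1, an adaptor that links the receptor to phosphoinositide 3-kinase, stood at 110 and 54.5 CPM for B wt and 29.0 and 25.7 for B deltaPOZ (-1.59, SE 0.42, edgeR adjusted p = 0.277). Its 2 B deltaPOZ libraries were below both B wt libraries, as was the case for 19.1% of all tested genes. For T the values were 6.13 and 3.28 CPM with wt and 8.10 and 6.93 with deltaPOZ (0.68, SE 0.42, edgeR adjusted p = 1). When the effect in T minus the effect in B was tested, DESeq2 called 1 of the 59, Pik3ap1 (1.38% of all genes). Neither edgeR nor limma-voom called any of the 59 there. Vpreb1 stood at 19.3 and 21.9 CPM for B wt and at 0.0585 and 0.937 for B deltaPOZ (-5.37, SE 1.15, edgeR adjusted p = 0.224), which DESeq2 called lower, the lowest value being that of B deltaPOZ 1, the library in which Cd72 was also lowest among the B tumours.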

How the data were processed

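The deposited files hold raw counts per Ensembl gene, 1 file per library, made by the authors. TruSeq Stranded mRNA libraries were used, per the labels' protocols. TopHat2 2.0.10, SAMtools, HTSeq, DESeq and the builds mm10 and GRCm38 are named in the submitters' processing notes, and the sources used here give no annotation release, strand setting or treatment of ambiguous reads. No-feature counts (30.4 to 39.3% of each library) and ambiguous counts (0.471 to 0.554%) were left out. GENCODE M21 held 40254 of 41214 identifiers (97.7%), and its basic annotation was used for the exons in the RefSeq windows. The symbols Iglc1 and Iglc3 of the lists were not matched.

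Of 27639 genes with a count filterByExpr kept 16456. A single model held all 8 libraries (edgeR 4.0.16, R 4.3.3) with 1 mean per group (4 residual degrees of freedom, biological coefficient of variation 0.45), with Benjamini-Hochberg adjustment over the tested genes. DESeq2 1.42.0 and limma 3.58.1 were alternatives. Other settings were another normalization, other filters, removal of receptor segments, each lineage alone, a threshold of 0.1, and libraries left out. Ratios and lengths used merged exons, neighbours lay within 10 Mb, and the code was tested on simulated data.

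Intervals were not computed for single levels, and every mean and SD rests on mice. Named genes were the 9, up to 4 of each list with the smallest p in the comparison described, and the 3 most alike to Cd79a, Cd79b and Blk. Vpreb1, Vpreb3, Igll1, Iglc2, Ighm, Cd3e, Cd4, Cd8a, Tesk1 and Xist were named after their values were seen. The genes and lists were chosen with earlier results of these data known. Some single genes are not reported here, although they stayed in every fit and list count. Replicate numbers follow record order.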

Additional observations from a re-analysis of the deposited data

Results flagged for a closer look

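The genotype effect on Cd79a differed between the lineages by 2.84 (log2, T minus B) and drew attention because both B deltaPOZ libraries were below both B wt libraries while both T deltaPOZ libraries were above both T wt libraries. That pattern was shown by 2.30% of all tested genes. The test of the difference did not pass (edgeR adjusted p = 0.710), and 6.26% of all tested genes had an unadjusted p under 0.05 there by edgeR. Over fits that left out a library the value ran from 2.13 to 4.30.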

How the results depend on the processing

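The 9 calls of B over T held in every fit that left out a library, with the other tools, filters and normalization, and with receptor segments removed. Without B wt 2, T wt 1 and T deltaPOZ 2 together 8 held. For deltaPOZ in B, where no gene was called, DESeq2 called 2 and the fit without a filter 4 (Cd79a, Cd72, Syk and Bank1). Without a filter 2 were called in T (Cd79a and Bank1) and 4 for the difference (Cd79a, Cd79b, Cd72 and Syk). That fit took in 27639 genes, and its prior degrees of freedom were infinite against 2.86 with the filter, so each gene's own spread had no weight there. Leaving out each library gave 0 calls for deltaPOZ in B, in T and for the difference.

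Signs turned only in fits that left out libraries. In B the ranges were -0.96 to 0.00013 for Cd79b, -0.31 to 0.045 for Cd22, -1.53 to 0.26 for Blk, -0.27 to 0.13 for Btk and -0.88 to 0.021 for Blnk, and Btk was at 0.073 without the 3 libraries together. In T they were -0.082 to 0.97 for Cd72, -0.56 to 2.15 for Blk, -0.14 to 1.53 for Syk, -0.11 to 0.28 for Btk and -0.24 to 1.71 for Blnk. For the difference they were -0.022 to 3.09 for Blk, -0.059 to 0.39 for Btk and -0.92 to 0.38 for Bank1. With the longest coding transcript as length, B means per kilobase were 111 for Syk, 89.3 for Blnk, 54.6 for Cd22, 37.7 for Bank1 and 37.0 for Btk. No paired analysis was possible because the replicate numbers follow record order and the labels tie no mouse of one group to a mouse of another. A lone library left in a group is assumed to vary like the other groups.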
